A study of Mus musculus with 8 samples.

Results

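The genes described are 44 genes of glycolysis and the hypoxia response, which cover glucose uptake, the glycolytic enzymes, the fate and export of lactate and pyruvate, the hypoxia-inducible factor (HIF) with its oxygen sensors, and HIF targets outside metabolism. They were chosen by name, with earlier results of these data known, out of 55335 gene identifiers. Of the 44, 37 reached 1 FPKM in at least 4 of the 8 libraries and were tested, among 11280 tested genes. FPKM stands for fragments per kilobase of transcript, scaled to the library's fragments, so it allows levels to be compared between genes of different length.

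The libraries came from MC3T3-E1, a clonal mouse pre-osteoblast line, kept for 3 days with either of 2 bone scaffolds. TABS is the submitters' Trio-Active bone scaffold (n = 4 libraries, TABS 1 to TABS 4), of a composition the sources used here do not give. HA is a hydroxyapatite scaffold that carries magnesium (n = 4, HA 1 to HA 4). Every library had a scaffold, so each difference is TABS relative to HA, and the labels name no oxygen level and no treatment that lowers oxygen. The labels do not say that the replicates were separate cultures, so each p-value rests on the spread among 8 libraries that may be technical repeats. Columns were matched to groups through library names that carry the letters H for TABS and L for HA, and no gene checks which scaffold a library had.

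Glycolysis splits glucose into pyruvate in the cytosol, and pyruvate is either oxidised in mitochondria or reduced to lactate and exported with a proton. When oxygen is plentiful, prolyl hydroxylases mark the HIF alpha subunits for destruction by the VHL ubiquitin ligase. When it is scarce, alpha subunits persist, pair with ARNT and raise transcription of glucose carriers, most glycolytic enzymes, pyruvate dehydrogenase kinases and many genes outside metabolism. Osteoblast-lineage cells are known for a high glycolytic rate. Because HIF alpha protein is controlled mainly by its stability, the mRNA of the subunits says little about its activity, while the mRNA of its targets is a common readout.

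HIF binds a core of the letters ACGTG or GCGTG, so stretches before a RefSeq start of 7 members are shown, to let a reader see where these letters lie in a Car9, Ldha, Pgk1, Hk2, Slc2a1, Ero1a and Hif1a promoter. A gene can have several starts, and the stretches of Car9, Ldha, Ero1a and Hif1a, and part of that of Slc2a1, lie inside the gene as GENCODE draws it; exons annotated there overlap those of Car9 and Slc2a1. They are RefSeq sequences of build GRCm38.p6, 5′ to 3′ on the strand of the gene, and capitals mark each match on either strand (CACGT is ACGTG and CACGC is GCGTG read on the other strand). Car9 is on the plus strand at chr4:43506996-43507025, Ldha plus at chr7:46845724-46845803, Pgk1 plus at chrX:106186930-106187009, Hk2 minus at chr6:82774455-82774534, Slc2a1 plus at chr4:119108684-119108713, Ero1a minus at chr14:45318573-45318652 and Hif1a plus at chr12:73907787-73907866.
Car9: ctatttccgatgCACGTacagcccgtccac
Ldha: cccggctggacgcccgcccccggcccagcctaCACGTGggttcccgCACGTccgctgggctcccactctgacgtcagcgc
Pgk1: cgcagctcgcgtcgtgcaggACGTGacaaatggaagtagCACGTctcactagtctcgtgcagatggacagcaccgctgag
Hk2: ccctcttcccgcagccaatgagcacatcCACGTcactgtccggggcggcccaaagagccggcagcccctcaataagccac
Slc2a1: CACGCctctcagagtcccgccccggACGTG
Ero1a: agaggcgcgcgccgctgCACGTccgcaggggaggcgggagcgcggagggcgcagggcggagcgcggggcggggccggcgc
Hif1a: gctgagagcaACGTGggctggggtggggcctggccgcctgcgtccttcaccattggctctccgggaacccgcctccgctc

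Of the 44 members, 40 were found in the RefSeq promoter table, with 60 promoters between them, each running from 250 bases before to 50 bases after a start. The letters ACGTG or GCGTG occurred on either strand in 46 of the 60 (76.7%), against 43.8% of all 32851 RefSeq mouse promoters of the same length. ACGTG, with or without GCGTG, was in 48.3% against 19.6%, and GCGTG, with or without ACGTG, in 53.3% against 32.4%. The 2 motifs share their last 4 letters but cannot match at the same position on the same strand. A match is a description of the letters and not a measured site. Both motifs contain the letters CG, and the part of the promoters' CG content in these shares was not tested. Promoters of the same gene can overlap, as in Aldoa and Eno1, so a site can be counted more than once. Bhlhe40, Epas1, Ndrg1 and Slc2a3 were not matched.

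The scaffolds did not part the glycolysis and hypoxia genes at the threshold used. With limma and Benjamini-Hochberg adjustment over all 11280 genes, 0 of the 37 tested members were higher and 0 were lower in TABS at an adjusted p under 0.05, while 7.38% of all tested genes passed (506 higher and 327 lower). At an unadjusted p under 0.05, 5 members were higher (Slc2a1, Hk1, Hk2, Eno2 and Car9) and 1 was lower (Hif1a), against 24.1% of all tested genes. In 4 members all libraries of a group lay above all of the other, 3 higher in TABS (Hk1, Hk2 and Eno2) and 1 lower (Hif1a), against 18.0% of all tested genes. Every fold change printed here is the TABS mean less the HA mean of log2(FPKM + 1), a scale that shrinks differences of weakly expressed genes. Their median was 0.05 over the 37 members (30 above 0 and 7 below) and 0.01 over all tested genes, and the median size regardless of sign was 0.06 over the members and 0.08 over all.

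A gene that misses the threshold is not shown to be equal, so the 95% confidence interval of each difference was used to give the size that these libraries leave possible. On the log2(FPKM + 1) scale, the whole interval lay within a 1.5-fold difference in either direction for 34 of the 37 members. The 3 that reached beyond it, all on the side of higher levels in TABS, were Pfkfb4, Car9 and Mxi1. For 27 members the interval lay within 1.25-fold, and for all 37 it lay within 2-fold. These are folds of FPKM + 1. For members near 1 FPKM, such as Eno2 and Ankrd37, they allow a larger fold of FPKM itself.

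**Figure D1:**
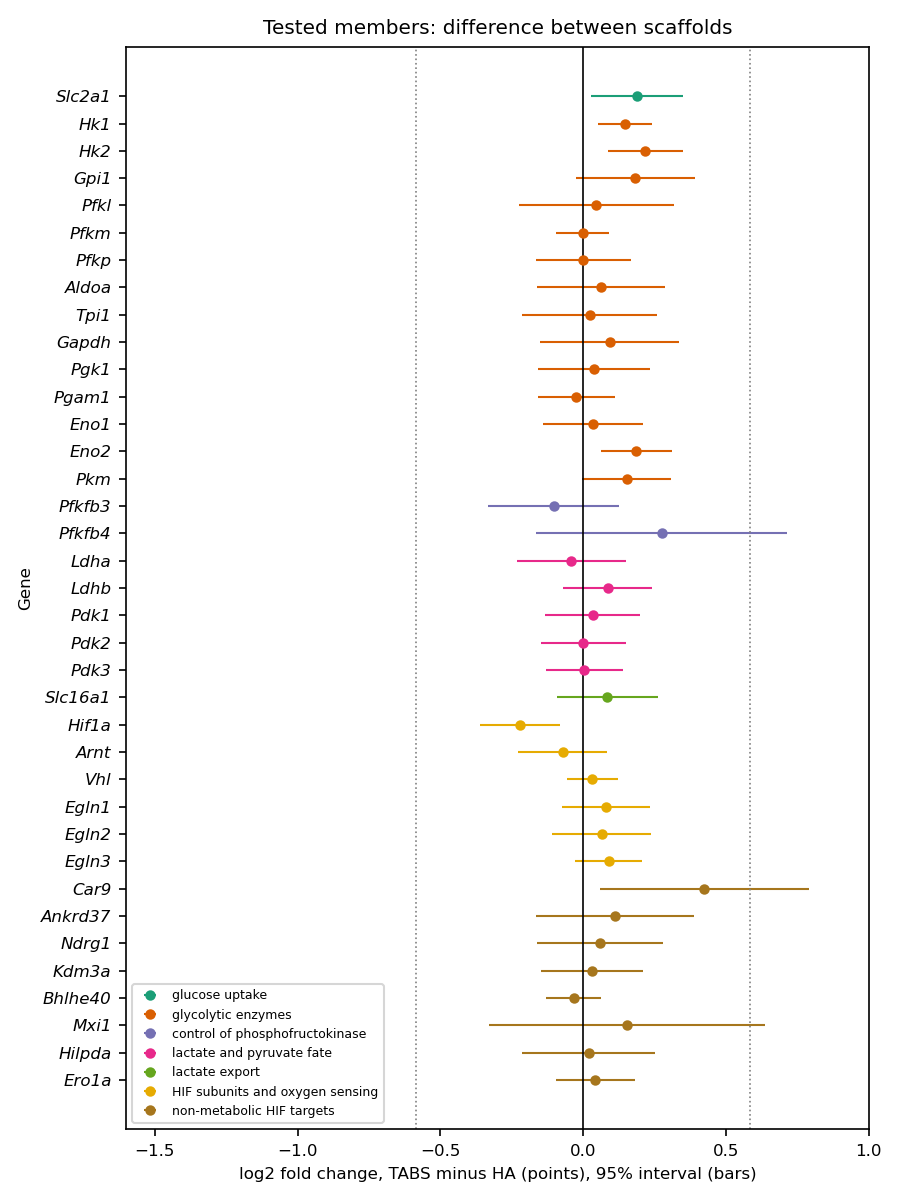
Log2 fold change (TABS minus HA, horizontal axis, on the log2(FPKM + 1) scale) of the 37 tested genes, with points for the estimate and bars for the limma 95% interval, coloured by role. Dotted lines mark a 1.5-fold difference of FPKM + 1 in either direction. Most points sit close to 0 with short bars, Car9 sits farthest right at 0.42 and Hif1a farthest left at -0.22.

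Enzymes, export and non-metabolic targets were set against each other, and their medians lay close together. The 14 tested glycolytic enzymes had a median log2 fold change of 0.05 (from -0.02 to 0.22, 12 above 0 and 2 below), the lactate exporter Slc16a1 had 0.08, and the 8 tested non-metabolic HIF targets had a median of 0.05 (from -0.03 to 0.42, 7 above 0 and 1 below). The 6 tested genes of the HIF subunits and oxygen sensing had a median of 0.05 (from -0.22 to 0.09), and the 5 of lactate and pyruvate fate 0.00 (from -0.04 to 0.09). Signs this close to 0 moved with the settings: 14 of the 14 enzymes were above 0 after rescaling to TPM (FPKM set to the same total in every library), 9 after correction for transcript GC content and length, 8 without TABS 3 and 7 without HA 4. In 18 of the 37 members the sign turned in at least 1 of 21 alternatives. Transcript GC content moved with the fold change across genes (Spearman rho 0.35 over 11277 genes, which are not independent replicates). Its median was 51.9% in the tested members and 49.8% in all tested genes, and its part in these values was not tested beyond that correction.

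Of the 2 glucose carriers among the members, 1 was expressed above the filter. Slc2a1, which encodes the glucose transporter GLUT1 (ENSMUSG00000028645, chr4:119108711-119137983 in GRCm38), was at 21.1, 19.8, 24.5 and 21.3 FPKM in TABS 1 to 4 and at 20.5, 19.4, 18.0 and 17.7 in HA 1 to 4. TABS 3 was the highest and HA 4 the lowest, and the groups overlapped. The means were 21.7 ± 2.01 in TABS and 18.9 ± 1.30 in HA (SD, n = 4 each), a log2 fold change of 0.19 ± 0.07 (SE) with a limma adjusted p of 0.144. Slc2a3, which encodes GLUT3, stayed between 0.00758 and 0.0437 FPKM in all libraries, so Slc2a1 made up 99.78% or more of the summed FPKM of the pair in every library. Among carriers that are not members, Slc2a10 was at 6.67 to 8.46 FPKM and Slc2a6 at 3.43 to 4.28, and neither passed the test (adjusted p 0.0734 and 0.235). The log2 fold change was -0.17 for Slc2a10, with every TABS library below every HA library, and 0.12 for Slc2a6, with overlapping groups.

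The hexokinases, which trap glucose in the cell by phosphorylation, came nearest to the threshold among the enzymes. Hk1, the housekeeping hexokinase (ENSMUSG00000037012, chr10:62268855-62379908), was at 44.8, 45.3, 46.0 and 46.0 FPKM in TABS 1 to 4 and at 43.2, 41.4, 41.1 and 38.5 in HA 1 to 4. Every TABS library lay above every HA library, and the TABS libraries were close together. The means were 45.5 ± 0.56 and 41.0 ± 1.96 FPKM, with a log2 fold change of 0.15 ± 0.04 (limma adjusted p = 0.0701). Hk2, the inducible hexokinase and a classic HIF target (ENSMUSG00000000628, chr6:82725025-82774454), was at 5.80, 6.25, 6.27 and 6.08 FPKM in TABS and at 5.60, 4.75, 4.74 and 5.39 in HA. The groups did not overlap, with HA 1 the closest to TABS. The log2 fold change was 0.22 ± 0.06, with an adjusted p of 0.0537. Hk1 passed the test in 3 of 21 alternative settings (TPM, library weights, and without HA 1, adjusted p 0.0239, 0.0410 and 0.0428) and Hk2 in 4 (these 3, at 0.0279, 0.0204 and 0.0355, and a filter of 5 FPKM, at 0.0494). Over the 21 alternatives the log2 fold change ran from 0.08 to 0.19 for Hk1 and from 0.13 to 0.28 for Hk2. The limma adjusted p reached 0.287 for Hk1 and 0.270 for Hk2. Hk1 made up 87.7% to 89.7% of the summed FPKM of the pair, and the 2 groups overlapped in that share.

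In the upper steps of the pathway, no gene passed, and HA libraries spread more widely than TABS libraries in Gpi1 and Pfkl. Gpi1, glucose-phosphate isomerase, ran from 68.2 to 73.5 FPKM in TABS and from 50.5 to 72.2 in HA, with HA 4 the lowest (0.18, adjusted p = 0.265). Of the phosphofructokinases, which commit sugar to glycolysis, the liver form Pfkl was at 27.2, 26.1, 31.9 and 29.1 FPKM in TABS and at 36.3, 25.3, 25.7 and 24.3 in HA. HA 1 stood above all the other libraries. The means were 28.6 ± 2.54 and 27.9 ± 5.63 FPKM, a log2 fold change of 0.05 ± 0.12 (adjusted p = 0.855). The muscle form Pfkm (30.3 to 33.4 FPKM) and the platelet form Pfkp (4.56 to 5.88) had log2 fold changes of -0.00 and 0.00. Pfkm held 43.0% to 52.5% of the summed phosphofructokinase FPKM and Pfkl 39.7% to 49.7%. HA 1 was the one library in which Pfkl exceeded Pfkm.

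The bifunctional PFKFB enzymes make and remove fructose 2,6-bisphosphate, an activator of phosphofructokinase. Pfkfb4 was at 2.89, 2.75, 2.95 and 1.36 FPKM in TABS and at 2.84, 1.74, 1.58 and 1.34 in HA. TABS 4 fell in with the lower HA libraries and HA 1 with the higher TABS libraries, so each group was split. The log2 fold change was 0.27 ± 0.19 (adjusted p = 0.424), with an interval from -0.17 to 0.71. Pfkfb3, a HIF target with the strongest kinase activity of the family, ran from 1.20 to 2.11 FPKM in TABS and from 1.82 to 2.13 in HA (-0.10, adjusted p = 0.581).

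Most of the abundant enzymes of the middle and lower pathway are known HIF targets, and in Gapdh, Pgk1, Aldoa, Tpi1, Pgam1 and Eno1 the SD within HA was larger than the difference of the means. Gapdh, glyceraldehyde-3-phosphate dehydrogenase (ENSMUSG00000057666, chr6:125161715-125166467), was at 425, 424, 458 and 394 FPKM in TABS and at 494, 408, 369 and 337 in HA. HA 1 was the highest of the 8 libraries and HA 4 the lowest, so the range of HA contained that of TABS. The means were 425 ± 25.9 and 402 ± 67.6 FPKM, with a log2 fold change of 0.09 ± 0.11 (adjusted p = 0.645). Pgk1, phosphoglycerate kinase (ENSMUSG00000062070, chrX:106187100-106203699), was at 275, 306, 351 and 351 FPKM in TABS and at 339, 286, 311 and 311 in HA. The groups overlapped over nearly their whole range, with TABS 1 the lowest library (0.04 ± 0.09, adjusted p = 0.84).

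Aldoa, the aldolase of most tissues, averaged 298 ± 15.1 FPKM with TABS and 287 ± 45.1 with HA (0.06), and Tpi1, triose-phosphate isomerase, at means of 259 and 256 FPKM (0.02). In both, HA 1 was the highest of the 8 libraries (351 FPKM for Aldoa and 318 for Tpi1). Aldoc, the brain aldolase, was between 0.0124 and 0.116 FPKM. Pgam1, phosphoglycerate mutase, ran from 361 to 389 FPKM in TABS and from 355 to 422 in HA (-0.02), and Eno1, the ubiquitous enolase, from 125 to 141 and from 117 to 151 (0.03). The lowest adjusted p among Aldoa, Tpi1, Pgam1 and Eno1 was 0.753, for Aldoa. Eno2, the neuronal enolase and also a HIF target (ENSMUSG00000004267, chr6:124760053-124769673), was at 1.73, 1.66, 1.68 and 1.42 FPKM in TABS and at 1.39, 1.36, 1.26 and 1.21 in HA. The groups did not overlap at this low level, with TABS 4 just above HA 1. The log2 fold change was 0.19 ± 0.06 (adjusted p = 0.0763). Eno2 passed the test only with TPM (0.0460) among the 20 alternatives in which it was tested. Over these its log2 fold change ran from 0.07 to 0.29, with a limma adjusted p of up to 0.236.

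Pkm, pyruvate kinase, makes pyruvate and ATP at the last step (ENSMUSG00000032294, chr9:59656368-59679375). It was at 429, 379, 430 and 406 FPKM in TABS and at 408, 353, 381 and 339 in HA. TABS 2 lay below HA 1 and HA 3, so the groups overlapped. The means were 411 ± 24.1 and 370 ± 30.5 FPKM, with a log2 fold change of 0.15 ± 0.07 (adjusted p = 0.217), which passed in 1 of the 21 alternatives, quantile normalization (0.0278). The table holds 1 value per gene, so the M1 and M2 splice forms of Pkm are not told apart.

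Several of these enzymes have near-identical processed copies in the genome, which can share reads with the parent gene and make its value uncertain. Copies were taken as genes aligned over at least 500 bases at 90% identity or more. Gapdh had 177, of which 13 had a mean of at least 1 FPKM. The summed FPKM of its copies was 419 to 578 per library, 50.7% to 55.4% of the total of gene and copies. The Pgam1 copies took 44.3% to 47.8%, the Eno1 copies 25.3% to 38.0% and the Pgk1 copies 22.4% to 23.5%. With the copies summed into their parent genes the log2 fold changes were 0.07 for Gapdh, -0.01 for Pgam1, 0.11 for Eno1 and 0.04 for Pgk1, and 0 members passed.

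**Figure D2:**
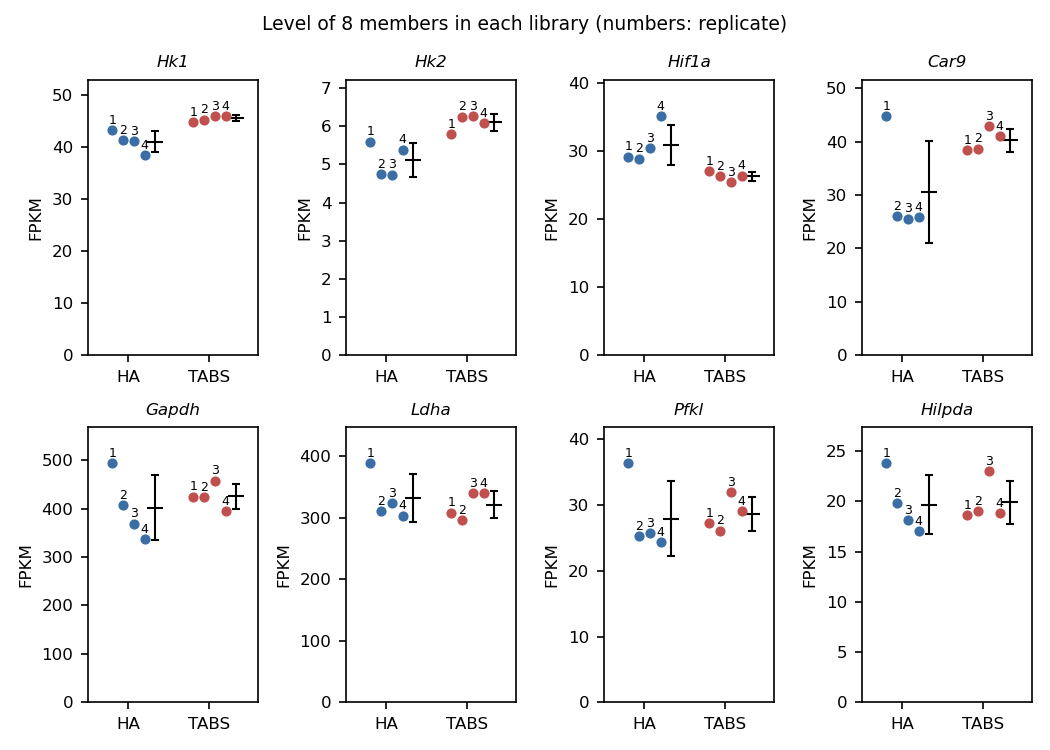
FPKM of 8 genes in each library (HA in blue, TABS in red, numbers give the replicate), with the group mean and SD as a black bar beside the points and every axis starting at 0. The groups do not overlap in Hk1, Hk2 and Hif1a, and HA 1 is the highest HA library in Car9, Gapdh, Ldha, Pfkl and Hilpda.

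At the branch after pyruvate, all 5 tested genes had log2 fold changes between -0.04 and 0.09. Ldha, the lactate dehydrogenase subunit that favours lactate formation (ENSMUSG00000063229, chr7:46841475-46855627), was at 308, 296, 340 and 340 FPKM in TABS and at 388, 311, 324 and 303 in HA. HA 1 was again the highest library, and the other 7 libraries lay between 296 and 340 FPKM. The means were 321 ± 22.4 and 332 ± 38.8 FPKM, a log2 fold change of -0.04 ± 0.08 with an interval from -0.23 to 0.15 (adjusted p = 0.812). Ldhb, the subunit of oxidative tissues, had means of 28.8 and 27.1 FPKM (0.09, adjusted p = 0.484), and Ldha held 90.8% to 93.1% of the summed FPKM of the pair.

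The pyruvate dehydrogenase kinases switch off the pyruvate dehydrogenase complex, which oxidises pyruvate inside mitochondria. Pdk1, a HIF-responsive kinase of this family (ENSMUSG00000006494, chr2:71873224-71903858), was at 4.30, 4.11, 4.62 and 4.32 FPKM in TABS and at 4.61, 3.73, 3.81 and 4.77 in HA. All TABS values lay inside the HA range (0.03 ± 0.07, adjusted p = 0.827). Pdk2 (12.9 to 15.8 FPKM) and Pdk3 (22.6 to 27.5) had log2 fold changes of 0.00 each.

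Lactate export is carried by the monocarboxylate transporters MCT1 and MCT4. Slc16a1, which encodes MCT1 (chr3:104638668-104658462), was at 6.87, 8.05, 9.08 and 7.57 FPKM in TABS and at 6.86, 6.99, 7.77 and 7.84 in HA. TABS 3 was the highest library and TABS 1 matched the lowest HA library, so the groups overlapped. The means were 7.89 ± 0.93 and 7.37 ± 0.51 FPKM (0.08 ± 0.08, adjusted p = 0.552). Slc16a3, which encodes MCT4, the HIF-induced exporter of glycolytic cells (chr11:120948480-120960868), was at 0.123, 0.137, 0.135 and 0.0704 FPKM in TABS and at 0.159, 0.139, 0.0629 and 0.167 in HA. These values are under the filter of 1 FPKM in every library and were not tested. Slc16a1 thus held 97.7% to 99.2% of the summed FPKM of the 2 exporters.

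**Figure D3:**
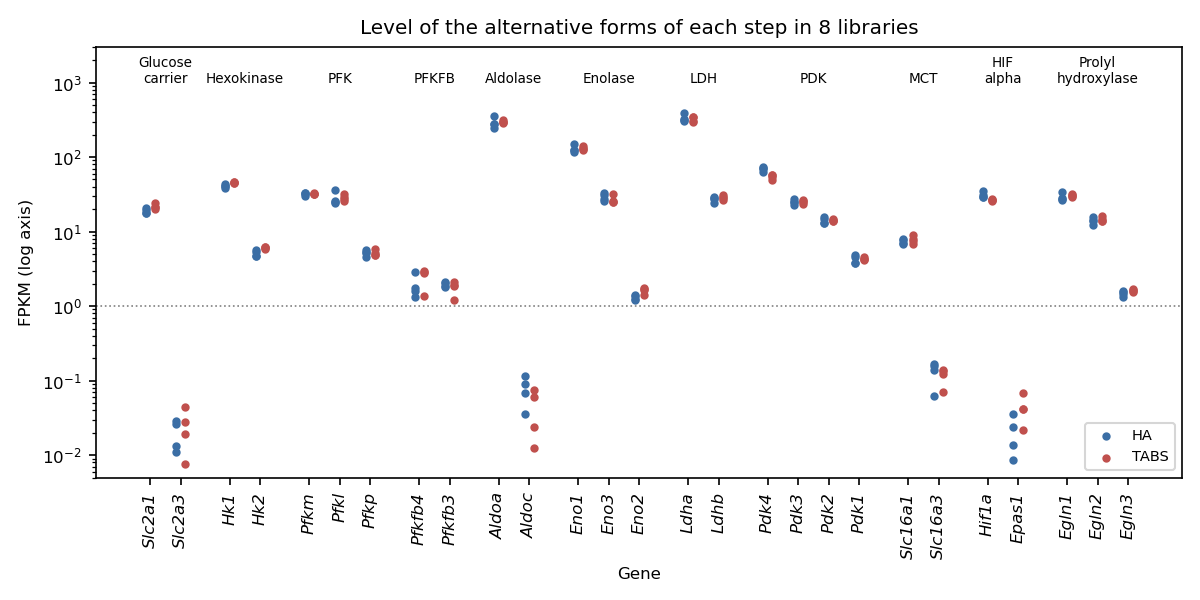
FPKM (log axis) of the members of each enzyme or transporter family in the 4 HA libraries (blue) and the 4 TABS libraries (red), with a dotted line at 1 FPKM. In most families a leading gene sits far above its relatives on both scaffolds, as Slc2a1 over Slc2a3 and Slc16a1 over Slc16a3, while Pfkm and Pfkl are at similar levels.

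Of the HIF subunits, Hif1a had the largest negative fold change among the members. Hif1a, the oxygen-regulated alpha subunit (ENSMUSG00000021109, chr12:73901375-73947530), was at 27.0, 26.3, 25.5 and 26.4 FPKM in TABS and at 29.2, 28.9, 30.5 and 35.2 in HA. Every TABS library lay below every HA library, and HA 4 was the highest. The means were 26.3 ± 0.63 and 31.0 ± 2.92 FPKM, a log2 fold change of -0.22 ± 0.06 with an interval from -0.36 to -0.08 (limma adjusted p = 0.0623). It passed in 2 of the 21 alternatives, median-of-ratios scaling (0.04995) and library weights (0.0474). Epas1, which encodes the second alpha subunit HIF-2 alpha, was between 0.00847 and 0.0687 FPKM, so Hif1a made up 99.7% or more of the pair. Arnt, the shared beta subunit, ran from 6.37 to 7.32 FPKM in TABS and from 6.47 to 8.06 in HA (-0.07, adjusted p = 0.571).

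The oxygen-sensing genes had small fold changes, and that of Vhl had a narrow interval. Vhl, the substrate-binding part of the ubiquitin ligase (chr6:113623959-113631633), was at 23.7, 23.0, 24.3 and 23.9 FPKM in TABS and at 22.8, 24.1, 23.5 and 22.4 in HA. The groups overlapped, and the interval of the difference ran only from -0.06 to 0.12 (log2 fold change 0.03 ± 0.04, adjusted p = 0.66). Among the prolyl hydroxylases, Egln3, which is itself strongly HIF-inducible (chr12:54178981-54203860), was at 1.72, 1.66, 1.58 and 1.56 FPKM in TABS and at 1.43, 1.58, 1.55 and 1.33 in HA. The lowest TABS libraries met the highest HA libraries (0.09 ± 0.05, adjusted p = 0.331). Egln1, the main sensor of oxygen (26.8 to 33.5 FPKM), and Egln2 (12.2 to 16.0) had log2 fold changes of 0.08 and 0.06. Egln1 held 63.0% to 66.5% of the summed hydroxylase FPKM, Egln2 29.7% to 33.3% and Egln3 2.82% to 3.78%, with overlapping groups in each.

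Among HIF targets outside metabolism, Car9 had the largest fold change of all members and was the clearest case of a value decided by 1 library. Car9 encodes carbonic anhydrase 9 (ENSMUSG00000028463, chr4:43506966-43513729), a membrane enzyme that handles exported acid and is among the most widely used hypoxia markers. The marked letters in its stretch above begin 18 bases before the RefSeq start used. It was at 38.3, 38.7, 42.8 and 41.0 FPKM in TABS 1 to 4 and at 44.8, 26.0, 25.6 and 25.9 in HA 1 to 4. HA 2, HA 3 and HA 4 were nearly identical and below every TABS library, while HA 1 was the highest of all 8. With all libraries the means were 40.2 ± 2.12 and 30.6 ± 9.49 FPKM, and the log2 fold change was 0.42 ± 0.16 (limma adjusted p = 0.148). Without HA 1 it was 0.62 ± 0.05 (adjusted p = 0.00145), and with limma's library weights 0.50 (adjusted p = 0.0458). Car9 passed in none of the other alternatives.

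The remaining targets differed less. Ndrg1, a stress-response gene that hypoxia induces strongly (chr15:66929318-66969640), was at 5.30, 5.74, 5.89 and 5.72 FPKM in TABS and at 6.98, 4.72, 4.91 and 5.18 in HA. As in Car9, HA 1 was above every TABS library and the other HA libraries were below (0.06 ± 0.10, adjusted p = 0.76). Bhlhe40, a transcriptional repressor, was at 17.5, 18.4, 17.8 and 19.0 FPKM in TABS and at 19.6, 18.1, 18.7 and 18.2 in HA. The groups overlapped, with a log2 fold change of -0.03 ± 0.04 and an interval from -0.13 to 0.06. Hilpda, a lipid-droplet protein that inhibits lipolysis, was at 18.6, 19.0, 23.0 and 18.8 FPKM in TABS and at 23.8, 19.8, 18.1 and 17.0 in HA (0.02). TABS 3 and HA 1 were the high libraries of their groups.

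Kdm3a, a histone demethylase (6.71 to 9.20 FPKM), and Ero1a, an oxidase of protein folding in the endoplasmic reticulum (7.03 to 8.76), had log2 fold changes of 0.03 and 0.04. Ankrd37 ran from 0.767 to 1.62 FPKM (0.11), and Mxi1, an antagonist of MYC, from 2.41 to 5.56 (0.15), with TABS 2 at 3.33 and HA 4 at 2.41 far below the other libraries of their groups. The adjusted p was 0.627 for Ankrd37 and 0.711 for Mxi1. The other 3 targets of this list were not tested. Car12, a second membrane carbonic anhydrase, ran from 0.0998 to 0.234 FPKM. Adm, which encodes the vasodilator adrenomedullin, was at 0.0339 in TABS 1 and 0.0154 in TABS 3 and was listed at 0 in the other 6 libraries. P2ry1, a purine receptor gene, was listed at 0 except for 0.0095 in TABS 4.

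Levels of the members varied together between libraries of the same scaffold, as the heat map of the members shows. HA 1 was the highest HA library in 12 of 14 glycolytic enzymes and in 5 of 8 non-metabolic HIF targets, with a median log2 difference from the other HA libraries of 0.19 and 0.36. Over all members it was the highest in 24 of 37 (64.9%), against 24.2% of all tested genes, where its median difference was -0.03. The 6 genes of the HIF subunits and oxygen sensing were split. HA 1 was the highest HA library in 2 of them, Egln1 (difference 0.28) and Egln2 (0.23). The difference was -0.10 for Hif1a, -0.21 for Arnt and -0.03 for both Vhl and Egln3, with a median of -0.03 over the 6. HA 4 was the lowest HA library in 11 of 14 glycolytic enzymes (median difference -0.16) and in 21 of 37 members (56.8%), against 28.2% of all tested genes.

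Within TABS the same held on a smaller scale. TABS 3 was the highest TABS library in 9 of 14 enzymes, in 6 of 8 non-metabolic targets and in 23 of 37 members (62.2%), against 27.0% of all tested genes. TABS 2 was the lowest in 9 of 14 enzymes. These libraries were singled out after their values were seen, and genes of a pathway are not independent, so the counts describe these 8 libraries and carry no test. The summed FPKM of the 15 glycolytic enzyme genes was 2375, 2297, 2526 and 2448 in TABS 1 to 4 and 2678, 2224, 2268 and 2092 in HA 1 to 4. HA 1 and HA 4 were the ends of the range over all 8 libraries.

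Mitochondrial genes took 12.2%, 12.1%, 10.2% and 11.5% of the summed FPKM in TABS 1 to 4 and 12.1%, 12.1%, 13.8% and 14.5% in HA 1 to 4. In TABS the library with the highest summed enzyme level, TABS 3, had the lowest mitochondrial share. HA 4, with the lowest enzyme level, had the highest share. HA 1 and HA 2 had nearly the same share, although their summed enzyme levels were 2678 and 2224 FPKM. The part of the mitochondrial share in the enzyme values was not tested.

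**Figure D4:**
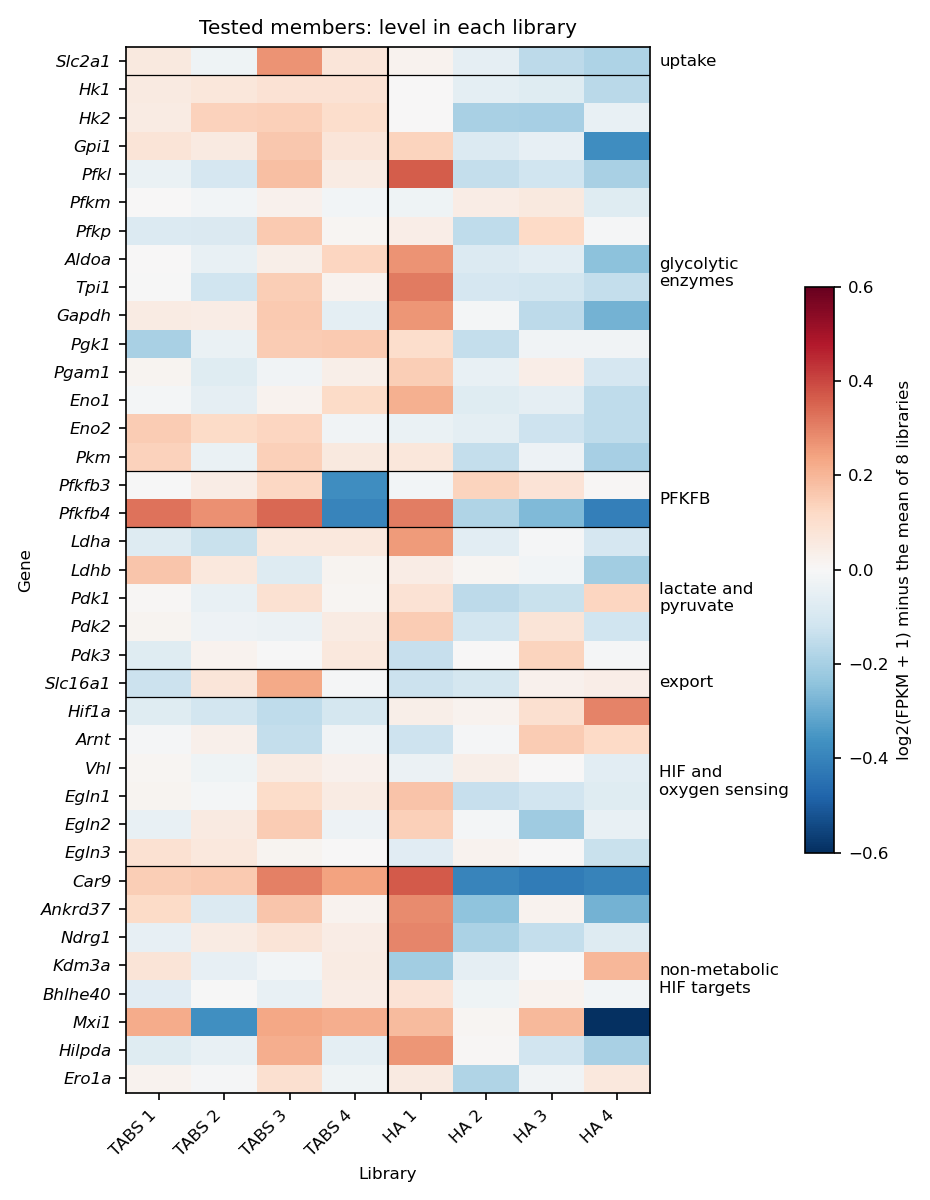
Level of the 37 tested genes in each library as log2(FPKM + 1) minus the mean of the 8 libraries (red above, blue below, colours saturate at 0.6), grouped by role with a line between the scaffolds. Most rows of the glycolytic enzymes and of the HIF targets are red in HA 1 and blue in HA 4, while Hif1a is blue in all TABS libraries.

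Leaving out a library moved the medians in either direction. Without HA 1 the median log2 fold change of the 14 glycolytic enzymes was 0.17 and that of the 8 non-metabolic HIF targets 0.14, against 0.00 over all tested genes. Without HA 4 they were 0.01 (7 enzymes above 0 and 7 below) and 0.04, and without HA 2 0.03 and 0.02. The enzyme median was 0.03 without TABS 4, 0.08 without TABS 1 and 0.09 without TABS 2. Without HA 1, 3 members passed (Hk1, Hk2 and Car9), all higher in TABS, while 6.27% of all 11231 genes tested in that fit passed. Without any other 1 library 0 members passed, and the lowest and highest median of the enzymes were those without HA 4 and without HA 1.

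Other genes of the same pathways were read from lists of 97 genes, of which 78 were tested, and 6 were higher and 2 lower in TABS, beside the 7.38% over all genes given above. Their median log2 fold change was -0.01. By list, 1 of 12 tested other glycolysis genes passed, 2 of 12 genes of pyruvate entry and the pyruvate dehydrogenase complex, 1 of 7 genes of the pentose phosphate pathway, 0 of 1 monocarboxylate transport partner, 2 of 14 other HIF pathway regulators and 2 of 32 other HIF targets. In all 8 genes, picked by that test, the groups did not overlap. Among the 78 tested, the groups did not overlap in 7 genes higher and 7 lower in TABS, against 18.0% of all tested genes.

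Pgm1, phosphoglucomutase, links glycogen to glycolysis and gave the firmest difference (ENSMUSG00000025791, chr4:99929414-99987294). It was at 73.7, 69.6, 74.0 and 71.1 FPKM in TABS and at 55.2, 55.0, 54.7 and 52.1 in HA. The lowest TABS library stood well above the highest HA library, and HA 1 did not stand apart. The log2 fold change was 0.40 ± 0.04 (limma adjusted p = 0.000763), and it passed in all 21 alternatives. Pgd, phosphogluconate dehydrogenase of the pentose phosphate pathway, rose to 25.9 ± 0.60 FPKM in TABS from 21.6 ± 1.06 in HA (0.25, adjusted p = 0.0113). With the replicate number as a block its adjusted p was 0.0623.

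A kinase and a phosphatase of the pyruvate dehydrogenase complex, which have opposite actions on it, were both lower in TABS. Pdk4, the kinase linked to fasting and fatty acid use (ENSMUSG00000019577, chr6:5483351-5496309), was at 49.8, 54.7, 58.1 and 58.0 FPKM in TABS and at 62.3, 68.2, 70.6 and 73.3 in HA. TABS 3 and TABS 4, the highest of TABS, stayed below HA 1, the lowest of HA. It fell by 0.31 on the log2 scale (SE 0.07, adjusted p = 0.0255). The call was lost with no filter (0.0693) and without TABS 1, TABS 2, HA 2, HA 3 or HA 4 (0.0587, 0.0638, 0.0584, 0.0682 and 0.0596). With the other 3 kinases counted in, Pdk4 held 54.0% to 57.3% of the summed kinase FPKM in TABS and 59.1% to 63.3% in HA. Pdp1, the catalytic subunit of the phosphatase that reactivates the complex, was lower in TABS, at 8.60 ± 0.27 FPKM against 11.1 ± 1.06 (-0.33, adjusted p = 0.014). The call on Pdp1 was lost only with the replicate block and GC correction together (-0.22, 0.0807).

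The HIF co-regulators and other targets that passed were small in size. Ep300, a histone acetyltransferase that HIF recruits, averaged 6.99 ± 0.05 FPKM with TABS and 6.05 ± 0.13 with HA (0.18, adjusted p = 0.0203). Arnt2, a relative of Arnt, ran from 1.24 to 1.39 FPKM in TABS and from 0.946 to 1.06 in HA (0.19, adjusted p = 0.0468). Plin2, a coat protein of lipid droplets, was at 61.4 ± 1.79 and 51.7 ± 2.35 FPKM (0.24, adjusted p = 0.0132), and Pnrc1, a nuclear receptor coactivator, at 37.6 ± 0.86 and 32.5 ± 0.74 (0.21, adjusted p = 0.012). With the replicate block the adjusted p was 0.118 for Ep300, 0.173 for Arnt2, 0.0712 for Plin2 and 0.0748 for Pnrc1. The call on Arnt2 was also lost without any 1 library (0.057 to 0.115), and that on Ep300 without any TABS library, HA 2 or HA 3 (up to 0.066). With the GC and length correction alone the adjusted p was 0.119 for Arnt2 and 0.0519 for Ep300. In sum, Arnt2 passed in 6 of the 20 alternatives in which it was tested, and Ep300 in 12 of 21. Vegfa, the angiogenic factor most often read as a HIF target, had a log2 fold change of -0.03 (adjusted p = 0.817).

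**Figure D5:**
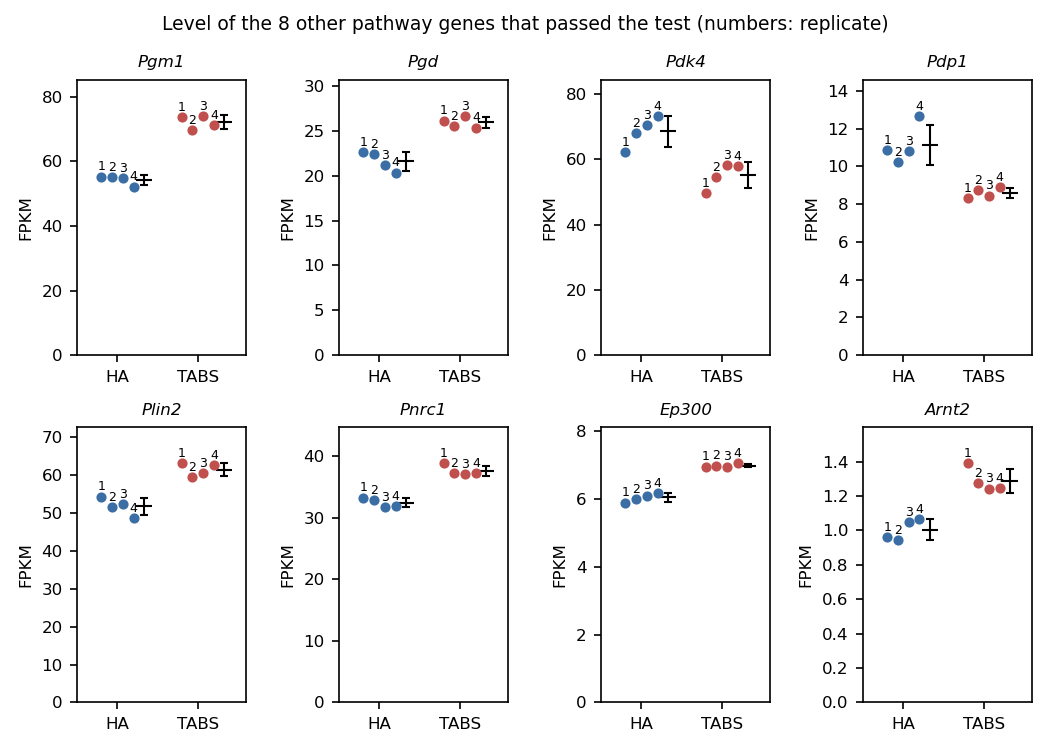
FPKM of the 8 other pathway genes that passed the test, in each library (HA in blue, TABS in red, numbers give the replicate), with the group mean and SD beside the points and axes that start at 0. Pgm1 shows the widest gap between the groups, and Pdk4 and Pdp1 are the 2 genes with lower values in TABS.

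The libraries summed to 304893 to 307263 FPKM in TABS and 312629 to 317439 in HA, with 11187 to 11357 genes at 1 FPKM or more, and for each the closest library by correlation was of the same scaffold. All 8 osteoblast markers listed were above 0, with a summed level, mostly of Col1a1, Col1a2 and Sparc, of 1864 to 2000 FPKM in TABS and 2187 to 2710 in HA. By limma 5 of them were lower in TABS: Ibsp (log2 fold change -1.73, adjusted p = 1.51e-05), Alpl (-0.68), Sp7 (-0.49), Sparc (-0.40) and Col1a1 (-0.39). Alpl, the alkaline phosphatase of mineralising osteoblasts, averaged 0.463 FPKM in TABS and 1.36 in HA, so in TABS it was under 1 FPKM. It passed the filter only through the HA libraries, so the direction of its call is not independent of the filter. Every gene of the macrophage (5), endothelial (4) and muscle (4) marker lists was under 1 FPKM in every library, as were 3 of the 4 adipocyte markers. In bulk RNA a lower share of cells of a kind and less RNA per cell cannot be told apart. The osteoblast markers' part in the values above was not tested. With no strand setting known, reads in exons shared with another gene cannot be told apart, as for Hk1 (Hk1os), Hif1a (Gm15283 and Gm49321), Pkm (Gm49759), Ankrd37 (Lrp2bp), Car9 (Gm12454), Gpi1 (Gm26762) and Pgm1 (Itgb3bp).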

How the data were processed

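Per the labels' protocols, total RNA was extracted from MC3T3-E1 cells after 3 days with a scaffold and sequenced as paired reads of 150 bases. The authors deposited 1 FPKM value per gene and library. The build GRCm38 and the tools fastp, STAR and DESeq2 are named in the submitters' processing notes. Their versions, the annotation release, the strand setting and the source program of the FPKM are not given here. FPKM holds no read counts, so depth is unknown and no interval that needs counts is given.

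Of 55335 identifiers, 55154 had a symbol in GENCODE M21, and all 8 libraries list 27134 of them at 0. Genes with at least 1 FPKM in at least 4 libraries (11280) were tested. TABS and HA were compared on log2(FPKM + 1) with limma 3.58.1 in R 4.3.3, with variances that follow the level, two-sided, Benjamini-Hochberg adjusted over all tested genes, threshold 0.05. Confidence intervals are limma's at 95%. The test was checked on simulated data with independent noise in each gene and library and set changes larger than that of any member. That simulation held no shift shared by the genes of a library, so it does not cover the shared differences between libraries described above. Alternatives were pseudocounts of 0.1 and 5, no filter and a filter of 5 FPKM, TPM, median-of-ratios and quantile scaling, a GC and length correction (mgcv 1.9.3), the replicate block with and without it, robust variances, library weights, each library left out, and, chosen after seeing the data, near-identical copies (BLAST 2.17.0) summed into their parents.

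The members and lists were chosen with earlier results of these data known. All members are accounted for, with values in every library for those whose groups did not overlap and for a fixed set of 14 genes. Pathway genes are named where they passed the test, at most 4 a list. Pfkl, Pfkfb4, Slc16a1, Hilpda, Mxi1, Vegfa, Slc2a6, Slc2a10 and the osteoblast markers were given in more detail after their values were seen.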

Additional observations from a re-analysis of the deposited data

Results flagged for a closer look

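In a group of 4 libraries, a library counts as far from the others when its gap to the nearest is large against the group's whole range (Dixon's 95% criterion). This was applied to 90 groups, the tested members and the other pathway genes that passed in each scaffold, and 7 groups met it (7.78%), where chance gives about 1 in 20. In 3 of them HA 1 was the high library: Car9 at 44.8 FPKM with the next at 26.0, Tpi1 at 318 with the next at 239, and Pfkl at 36.3 with the next at 25.7. In TABS, Hilpda was high in TABS 3 at 23.0 FPKM (next 19.0), and Pnrc1 was high in TABS 1 at 38.9 FPKM (next 37.3). Pfkfb4 was low in TABS 4 at 1.36 FPKM (next 2.75), and Mxi1 was low in TABS 2 at 3.33 FPKM (next 5.50).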

How the results depend on the processing

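The number of members that passed was 0 in 15 of the 21 alternatives. Higher members numbered 3 with TPM, 3 with library weights, 1 with a filter of 5 FPKM, 1 with quantile normalization, and 0 to 3 with a library left out (3 without HA 1). Lower members numbered 1 with median-of-ratios scaling and 1 with library weights, and 0 with a library left out. Of the 37 tested members, 31 passed in no alternative. Over all 11280 tested genes, 506 were higher and 327 lower. TPM gave 915 and 239, library weights 577 and 371, quantile normalization 529 and 372, and median-of-ratios scaling 484 and 364. A filter of 5 FPKM gave 458 and 254 of 6879 genes, and no filter 347 and 195 of 28201. Leaving out a library gave 239 to 425 and 167 to 279. The members that passed in these settings thus came with many other genes.

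With replicate numbers as a block, 136 genes were higher and 94 lower, and with the block and GC correction 156 and 153, with 0 members in either. The labels do not say whether same-numbered libraries of the 2 groups were paired. The correlations of their deviations from the group means were 0.105, 0.05, -0.104 and -0.058. Between libraries of unlike number these correlations ran from -0.164 to 0.177. Such small values do not decide whether the libraries were paired. No call turned direction; the sign of 18 of the 37 members, none of which passed in those settings or in the main comparison, turned in at least 1 alternative. With 4 libraries a group, the intervals of 34 members lay within 1.5-fold of FPKM + 1, and smaller differences were often not detectable.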

Other observations

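Eno1b, a near-identical copy of Eno1, was uneven between libraries of the same scaffold. It was at 5.72, 26.8, 29.8 and 25.7 FPKM in TABS 1 to 4 and at 32.4, 0.985, 21.9 and 2.55 in HA 1 to 4. TABS 1, HA 2 and HA 4 were the low libraries. Reads of Eno1 and Eno1b can be assigned to either, so both values are uncertain.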
